A study of Mus musculus with 5 samples.

Results

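The cells described here are fibroblasts of mouse hindlimb muscle that carried transcripts of Clu together with those of Cyp2f2, Fam180a, Clec1a or Gdf10, and that stayed below a limit of 3 UMIs for the transcripts of a Bglap population. They numbered 83 of 14815 cells compared (0.560%), from 5 single-cell libraries. The members were chosen by measured values. Each had at least 2 UMIs of Clu (UMIs are molecule counts) and at least 3 UMIs summed over Cyp2f2, Fam180a, Clec1a and Gdf10. All cells had at least 500 detected genes and at most 10% mitochondrial UMIs, which kept 17085 of 17213 barcodes. A further 2270 cells were set aside for tenocyte transcripts (5 or more UMIs of Tnmd, Fmod, Kera and Chad), mural transcripts (5 or more of Rgs5, Kcnj8, Abcc9 and Higd1b) or Bglap-class transcripts (3 or more of Bglap, Bglap2, Comp and Ostn). Comp, one of the limited genes, still had 18 UMIs in 14 members, at 24.7 to 49.2 CPM (molecule counts scaled to a common total) against 1.96 to 10.0 CPM in the other cells. Levels of these genes are therefore a description of the choice, and the comparison of members with the other cells of the same library carries no test.

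All 5 libraries came from adult C57BL/6J mice aged 8 weeks that were homozygous for CreERT2 at the Hic1 locus and carried 1 copy of a Rosa26 LSL-tdTomato reporter. Tamoxifen (2.5 mg in 100 µL of sunflower oil) was given daily for 5 days and followed by a washout of 10 days, so that cells with an active Hic1 locus at that time, and their descendants, were tdTomato-positive. The tdTomato-positive mesenchymal progenitors were sorted from whole hindlimb muscle, either quiescent or at day 1, 2, 4 or 14 after injury with notexin, a snake venom phospholipase that destroys myofibres. Each condition was 1 droplet library, and the labels name neither the number nor the sex of the animals in it, so no test between conditions was possible. All intervals below are 95% intervals for counting error only, and cells of 1 library are not replicates. Levels are CPM, the UMIs of a gene scaled to a common total over the summed cells of a library. The 3' protocol counts molecules by 1 end, so levels were not divided by gene length.

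Clusterin, the product of Clu, is a secreted chaperone that binds misfolded extracellular proteins and lipids. Gdf10 encodes a secreted member of the TGF-beta superfamily (also called BMP3B), Cyp2f2 a cytochrome P450 that oxidises small aromatic compounds, and Clec1a a C-type lectin receptor. The function of Fam180a is not well known. Fibroblasts of muscle are the interstitial mesenchymal cells that build the extracellular matrix and, after injury, recruit immune cells and support the muscle stem cells.

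In GRCm38, Clu lies on chromosome 14 at 65968483 to 65981547 (plus strand) and Gdf10 on the same chromosome at 33923587 to 33937983 (plus strand). Cyp2f2 lies on chromosome 7 at 27119909 to 27133660 (plus strand). Fam180a (35312668 to 35326141) and Clec1a (129424772 to 129452000) both lie on the minus strand of chromosome 6. The promoters of Cyp2f2 and Gdf10, both genes of the rule and of the label, are shown because they differ in base composition. The 300 bases of each (RefSeq, GRCm38.p6) run from 250 bases before the annotated start, and capitals mark the 50 bases from the start onward. Cyp2f2 is at chr7:27119705-27120004 and Gdf10 at chr14:33923337-33923636, both on the plus strand.
Cyp2f2: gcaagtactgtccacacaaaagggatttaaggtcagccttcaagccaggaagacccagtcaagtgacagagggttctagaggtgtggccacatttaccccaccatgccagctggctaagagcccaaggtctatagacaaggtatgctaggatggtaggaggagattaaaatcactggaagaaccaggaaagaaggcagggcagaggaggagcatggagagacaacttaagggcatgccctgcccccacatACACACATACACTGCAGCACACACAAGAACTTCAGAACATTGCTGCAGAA
Gdf10: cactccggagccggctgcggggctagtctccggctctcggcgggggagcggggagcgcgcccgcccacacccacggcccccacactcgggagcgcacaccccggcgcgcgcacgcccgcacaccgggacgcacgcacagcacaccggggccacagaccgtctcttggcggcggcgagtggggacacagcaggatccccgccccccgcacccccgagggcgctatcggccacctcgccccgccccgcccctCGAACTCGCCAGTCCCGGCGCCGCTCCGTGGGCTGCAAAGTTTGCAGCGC
The Cyp2f2 promoter held 0 CG dinucleotides and 50.3% G plus C. The Gdf10 promoter held 42 CG dinucleotides and 77.3% G plus C, and 97.0% of the 32851 RefSeq promoters of this length held fewer CG dinucleotides than it did (median 7). Fam180a, the other matched gene of the rule, held 7. The letters TATAAA were in none of the 3 on either strand, and in 13.6% of all the promoters. Promoters of 3 of the 6 genes that label these cells were matched.

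The 5 genes that chose the members, and Crispld1, a label gene that the rule did not use, were distributed unevenly among the 83 cells. By construction every member held Clu, with 502 UMIs in all. Gdf10 was present in 58 members (150 UMIs), Clec1a in 52 (107 UMIs), Fam180a in 30 (48 UMIs) and Cyp2f2 in 27 (98 UMIs). Of the 4 summed genes, 22 members held 1, 39 held 2, 21 held 3 and 1 held all 4. The label thus names genes that only partly overlap in the cells. Crispld1 had 38 UMIs in 26 members. Its level in the quiescent, day 1, day 2, day 4 and day 14 members, the order used throughout, was 50.9, 29.3, 52.8, 106 and 90.5 CPM. In the other cells it was 22.5, 2.15, 3.85, 9.68 and 22.5 CPM. Members were above the other cells of their library in all 5. The ratio was 2.26 in the quiescent library (interval 0.610 to 5.91, on 4 UMIs) and 10.9 at day 4 (6.02 to 18.3, on 15 UMIs). When every cell was thinned to 2000 UMIs, Crispld1 remained detectable in 1 of 21, 0 of 8, 1 of 13, 4 of 20 and 2 of 21 members, so this label gene is thinly measured.

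The gene that carried most of the 4-gene sum differed between libraries. Gdf10 made up 34.1%, 17.6%, 34.4%, 19.8% and 64.3% of it, and Cyp2f2 14.6%, 41.2%, 35.9%, 39.6% and 4.46%. Gdf10 stood at 356, 88.0, 194, 155 and 593 CPM in members, highest at day 14. Cyp2f2 stood at 153, 205, 202, 310 and 41.1 CPM, highest at day 4 and lowest at day 14, where it rests on 5 UMIs in 3 members. Clec1a gave 344, 176, 141, 204 and 189 CPM. Fam180a gave 191, 29.3, 26.4, 113 and 98.8 CPM, with low values at days 1 and 2. Clu itself stood at 1412, 659.7, 678, 1048 and 988 CPM in members, against 43.1, 9.89, 6.10, 12.3 and 17.3 CPM in the other cells. A single cell held 18.9% to 51.1% of the members' Clu UMIs in a library. Because these genes chose the cells and their shares sum to a fixed total, the levels are reported as a description.

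**Figure D1:**
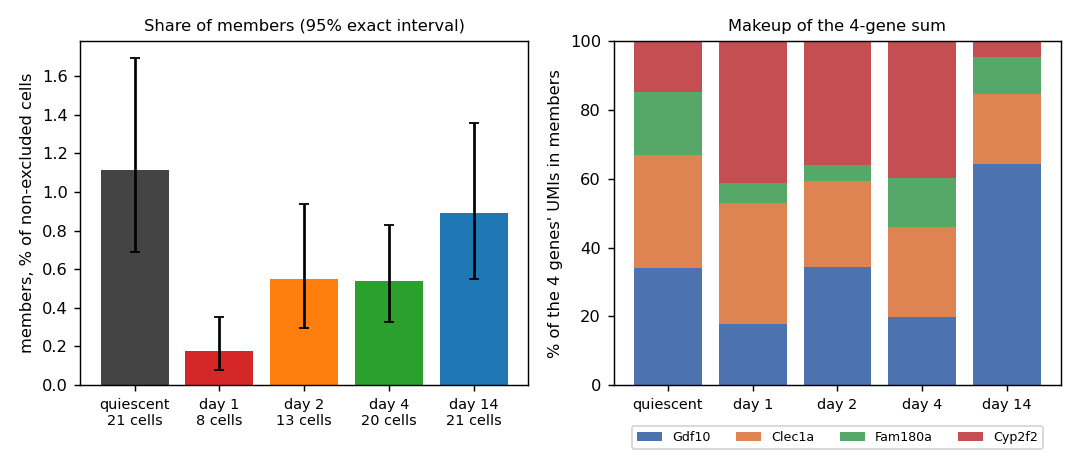
Left, members as a percentage of the compared cells in each library, with 95% exact binomial intervals. Right, the percentage of the members' UMIs of Cyp2f2, Fam180a, Clec1a and Gdf10 that came from each gene. The share runs from 0.178% at day 1 to 1.11% in the quiescent library, and Gdf10 makes up 64.3% of the sum at day 14.

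Members were 21 of the 1887 quiescent cells (1.11%, exact Clopper-Pearson interval 0.690 to 1.70), 8 of 4488 at day 1 (0.178%, 0.0770 to 0.351), 13 of 2361 at day 2 (0.551%, 0.293 to 0.940), 20 of 3718 at day 4 (0.538%, 0.329 to 0.830) and 21 of 2361 at day 14 (0.889%, 0.551 to 1.36). The quiescent and day 14 intervals overlap each other, and the day 1 interval lies below both. Depth enters a rule on UMI numbers: members had median totals of 3545, 7742, 7625, 7183.5 and 5817 UMIs, and the other cells 3881, 8829.5, 11259, 7043.5 and 4940.5. With all cells thinned to 2000 UMIs before the rule, 6, 0, 1, 0 and 5 cells met it. These are 0.360%, 0%, 0.0411%, 0% and 0.228% of the cells deep enough. By the exact interval, a count of 0 allows up to 0.0800% at day 1 and 0.0953% at day 4. The quiescent and day 14 libraries remained the highest. With stricter thresholds (at least 5 UMIs of the 4 genes and 3 of Clu), the libraries held 4, 2, 6, 6 and 5 such cells, and day 2 was then the highest. Because the libraries hold sorted cells, these are shares of the sorted cells and not of the muscle, and a share of cells above a UMI threshold cannot be told apart from a change in transcripts per cell.

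The overlap of the Clu condition with the 4-gene condition is given as a description of the choice, at full depth, where cells with more UMIs reach both limits more easily. Among cells with at least 2 Clu UMIs, 28.8%, 11.6%, 32.5%, 27.4% and 35.6% also reached 3 UMIs of the 4 genes, against 3.20%, 1.81%, 7.02%, 2.91% and 7.52% of the cells below 2 Clu UMIs. Just inside the thresholds stood 11, 5, 4, 9 and 8 members with a 4-gene sum of exactly 3. Just outside stood 13, 9, 5, 7 and 8 cells with enough Clu and a sum of 2, and 9, 6, 19, 17 and 26 cells with a sufficient sum and 1 Clu UMI. Of the 2270 cells set aside, 25 (1.10%) met both thresholds, among them 21 of 628 Bglap-class cells (3.34%), 8 of 1400 tenocyte-class cells and 1 of 614 mural-class cells, some cells being in more than 1 class.

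The label fibroblast was checked against marker genes. Summed over Pdgfra, Dcn, Col1a1, Col3a1, Ly6a, Cd34 and Lum, members held 16551 to 39048 CPM across libraries and the other cells 11624 to 39244. Pdgfra, the receptor used to mark these progenitors, was found in 74 of 83 members at 598, 235, 238, 324 and 296 CPM. The other cells had 315, 235, 216, 189 and 252 CPM. Transcripts of tdTomato were found in 82 of 83 members, and those of Hic1 in 10, at 25.4, 0, 26.4, 14.1 and 41.1 CPM against 38.1, 10.1, 21.0, 31.3 and 35.8 CPM in the other cells. Among markers of other cell types that the rule did not use, the chondrocyte and erythroid markers were at 0 in members, as were Ibsp, Phex and Sp7 of the osteoblast list and Myh11 of the mural list. Bglap, Bglap2, Rgs5, Kcnj8, Abcc9 and Higd1b were also at 0, which the rule itself favours, since it set aside cells with more of them. Immune markers totalled 3 UMIs over all 83 members, endothelial markers 11, myogenic markers 6 and adipocyte markers 1. The osteoblast list totalled 7 UMIs, from Alpl and Dmp1. It stood at 0, 58.6, 0, 7.04 and 16.5 CPM in members and 24.8, 31.0, 13.6, 5.63 and 10.5 CPM in the others. The Schwann list totalled 44 UMIs with Mbp and Sox10 at 0. The endoneurial list, genes of the fibroblasts inside nerves, stood at 117 to 216 CPM in members and 73.5 to 220 CPM in the others. Several lists of other cell types stood above the other cells in some libraries and below them in others. The Schwann list stood at 114 against 71.8 CPM at day 2 and at 49.4 against 173 CPM at day 14. The endothelial list stood at 29.3 against 9.63 CPM at day 1, on 2 UMIs, and at 8.80 against 12.9 CPM at day 2. Among lists of other cell types, those of the joint lining and of tenocytes held the most UMIs in members. The joint lining list stood at 568 to 5703 CPM against 279 to 1988, nearly all of it Prg4, while Htra4 and Tspan15 of that list were at 0. The tenocyte list, part of which the rule limits, had 163 UMIs in members, at 63.6, 88.0, 229, 394 and 576 CPM against 204, 149, 63.5, 277 and 283. It was below the other cells in the quiescent and day 1 libraries and above them from day 2 on, with Chad and Scx at 0. No name beyond fibroblast was given to these cells.

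Across libraries 153 barcode sequences occurred in more than 1 library, 5 members carried one of them, and 0 of the shared barcodes belonged to members in 2 libraries. The libraries held 8043771, 44552329, 32843041, 32283940 and 17612150 UMIs in all barcodes. The members' summed UMIs were 78594, 68212, 113595, 142134 and 121516, so that 3 UMIs, the floor used for bounds below, equal 38.2, 44.0, 26.4, 21.1 and 24.7 CPM. Median mitochondrial shares were 1.88% to 3.31% in members and 1.74% to 2.58% in the other cells. Doublets were not called.

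Against the other cells, members held more transcripts of Prg4, Mgp, Vit, Myoc, Meox1 and Meox2, and fewer of Pi16, Dpp4, Efemp1, Il33 and Ccl2. Of 4266 genes measured in all 5 libraries at 20 CPM or more in the higher cell group, 25 were at least 2-fold higher in members in every library (0.586%) and 18 at least 2-fold lower in every library (0.422%). With TMM scaling of edgeR, which moved the median log2 ratio of all genes from -0.03 to -0.30, the numbers were 14 higher and 41 lower. A looser call used below, the same direction in all 5 libraries with a median log2 ratio of at least 1, took in 117 of 5958 genes (1.96%), and 132 had a median of at most -1 (2.22%). The log2 ratios were computed after adding 5 CPM to both sides and understate differences of low genes. As the members were chosen on transcripts of the same cells, these numbers describe them and have no test.

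Prg4, which encodes lubricin, the glycoprotein that lowers friction at joint and tendon surfaces, was found in 72 of 83 members. Its level in members was 1272, 5512, 5141, 1857 and 486 CPM, and in the other cells 143, 1510, 1277, 254 and 81.7 CPM. Both cell groups were highest at days 1 and 2, and members stood above the others in every library. The ratio was 8.89 (7.17 to 10.9), 3.65 (3.29 to 4.04), 4.02 (3.70 to 4.37), 7.31 (6.44 to 8.27) and 5.94 (4.49 to 7.73). Set-aside cells carried Prg4 too, with medians over libraries of 779 CPM in Bglap-class and 487 CPM in tenocyte-class cells. Members stood above Bglap-class cells in all 5 libraries. At 2000 UMIs per cell, 18 of 21 quiescent members held Prg4 (85.7%; 18 also at full depth), against 12.2% of the other quiescent cells (15.7% at full depth) and 0 of 21 mural cells. At day 2 the values were 11 of 13 members (84.6%), 61.9% of the others and 15 of 43 mural cells (34.9%). The quiescent mural share leaves out 91 mural cells with fewer than 2000 UMIs. How much of the Prg4 in mural cells came from free RNA was not tested. Other genes of the joint lining list did not share this direction: of 10 measured, Prg4 alone was higher by the looser call, 3 were lower (Has1, Cd55 and Fn1), and the median log2 ratio was -0.78 beside -0.03 for all genes.

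Mgp, Vit, Myoc and Cpxm2 were among the genes higher in members than in the other cells. The set-aside classes carried them too. In tenocyte-class and Bglap-class cells the medians over libraries were 10277 and 6981 CPM for Mgp and 319 and 257 CPM for Cpxm2. Members stood above Bglap-class cells in 2 of 5 libraries for Mgp, 1 for Cpxm2, and 4 each for Vit and Myoc. Mgp, whose product matrix Gla protein inhibits calcification, stood at 7965, 3211, 3662, 6529 and 12788 CPM in members and 1054, 375, 632, 3530 and 3051 CPM in the others. It was found in 80 members, and the ratio was 1.85 at day 4 and 4.19 to 8.57 in the other 4 libraries. Vit, encoding the matrix protein vitrin, stood at 331, 58.6, 167, 197 and 247 CPM against 55.1, 7.10, 23.4, 22.2 and 71.0. Myoc, encoding the secreted glycoprotein myocilin, stood at 4657, 572, 2042, 2624 and 3835 CPM against 1318, 129, 432, 575 and 1953 and was found in 75 members. Cpxm2, a secreted carboxypeptidase-like protein, had 293, 117, 17.6, 253 and 255 CPM against 25.7, 6.62, 5.65, 13.3 and 40.4. Its day 2 value rests on 2 UMIs (ratio 3.11, 0.374 to 11.4). Of 6 chondro-osteogenic genes measured, 3 were higher by the looser call (Mgp, Omd and Cilp), 1 was lower (Spp1), and the median was 0.75. Cilp, a cartilage intermediate layer protein, stood at 471, 176, 493, 1372 and 881 CPM against 220, 13.3, 54.8, 872 and 273. Spp1, encoding osteopontin, reached 2210 CPM in the other cells at day 4 and 21.1 CPM in members. Of 9 small leucine-rich proteoglycans 1 was higher (Omd) and 0 lower, with a median of 0.46, and of 23 interstitial matrix genes 1 was higher (Fbln1) and 3 were lower (Fn1, Postn and Spp1), with a median of 0.15.

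Among genes of secreted signals and their reception, few were called. Of 10 target genes of BMP and TGF-beta signalling, a pathway in which Gdf10 is a ligand, 4 were higher (Id1, Id2, Tgfbi and Tsc22d1), 1 was lower, and the median was 0.63. Id1 and Id2 encode inhibitors of basic helix-loop-helix factors and are direct BMP targets. Id2 stood at 344, 264, 291, 366 and 477 CPM in members and 72.4, 75, 182, 94.9 and 125 CPM in the others, and members were above the others in all 5 libraries. Id1 stood at 165, 73.3, 264, 106 and 65.8 CPM against 29.7, 41.9, 49.4, 13.4 and 25.7, with most of the day 2 UMIs in 1 cell. Of 8 receptors 1 was higher (Acvr2a) and 0 lower. Of 6 other ligands 0 were called, and their median of -0.73 became -0.01 with genes at 0 set to their floor. Of 7 antagonists and latent binders 2 were higher (Chrdl1 and Fst) and 1 was lower (Ltbp1). Their median of 0.31 became -0.21 with TMM scaling. Of 5 Hedgehog genes 2 were higher, the co-receptors Gas1 and Boc, with a median of 1.08. Boc stood at 229, 14.7, 150, 98.5 and 198 CPM in members, the day 1 value being 1 UMI, and 37.7, 11.4, 15.5, 25.9 and 35.2 CPM in the others. Gas6, a vitamin K-dependent ligand of the TAM receptor kinases, stood at 267, 58.6, 106, 239 and 313 CPM against 58.9, 7.78, 32.7, 40.3 and 77.6. Of 6 Wnt ligands and modulators Dkk3 was higher and Wnt2 was lower, with no Wnt2 UMI in any member.

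Among transcription factors, both Meox genes, homeobox regulators of somite and limb muscle development, were higher in members. Meox1 stood at 509, 132, 176, 211 and 362 CPM in members and 45.4 to 90.4 CPM in the others. It was found in 53 members. Meox2 stood at 687, 205, 317, 471 and 494 CPM against 155, 59.0, 161, 178 and 158, in 69 members. They were the 2 genes called higher of 8 measured Hox and limb positional genes, with 0 lower and a median of 0.53. At 2000 UMIs per cell, Meox1 was held by 57.1%, 25%, 23.1%, 40% and 47.6% of members against 10.6%, 7.08%, 10.8%, 11.7% and 11.7% of the others, and by 1.04% to 9.52% of mural cells. Other set-aside cells carried Meox1 at levels within the members' range. Its medians over libraries were 181 CPM in tenocyte-class and 147 CPM in Bglap-class cells. Members stood above Bglap-class cells in all 5 libraries.

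A cytoskeletal regulator and a lipid carrier were also on the high side. Arhgdib, a guanine nucleotide dissociation inhibitor of small GTPases, had the highest median log2 ratio of the named genes outside the rule, 3.44, at 165, 205, 185, 218 and 156 CPM in members against 9.63, 17.0, 16.4, 15.1 and 9.83 CPM. It was found in 37 of 83 members. Arhgdib is also a transcript of mural cells, where its median over libraries was 624 CPM. The mural list summed to 0 to 44.0 CPM in members and 8.21 to 44.7 CPM in the others; Myh11 was at 0, as were 4 genes that the rule limits, and the part of mural transcripts in this result was not tested. Tmem176a and Tmem176b, which encode related membrane proteins, differed most in the quiescent, day 1 and day 14 libraries. Tmem176b stood at 382, 308, 819, 746 and 387 CPM in members against 32.2, 53.0, 389, 406 and 75.1. Apod, which encodes the lipid carrier apolipoprotein D, stood at 1947, 1188, 907, 3982 and 3687 CPM against 598, 299.6, 380.1, 1268 and 1658. Apod was higher in every library.

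**Figure D2:**
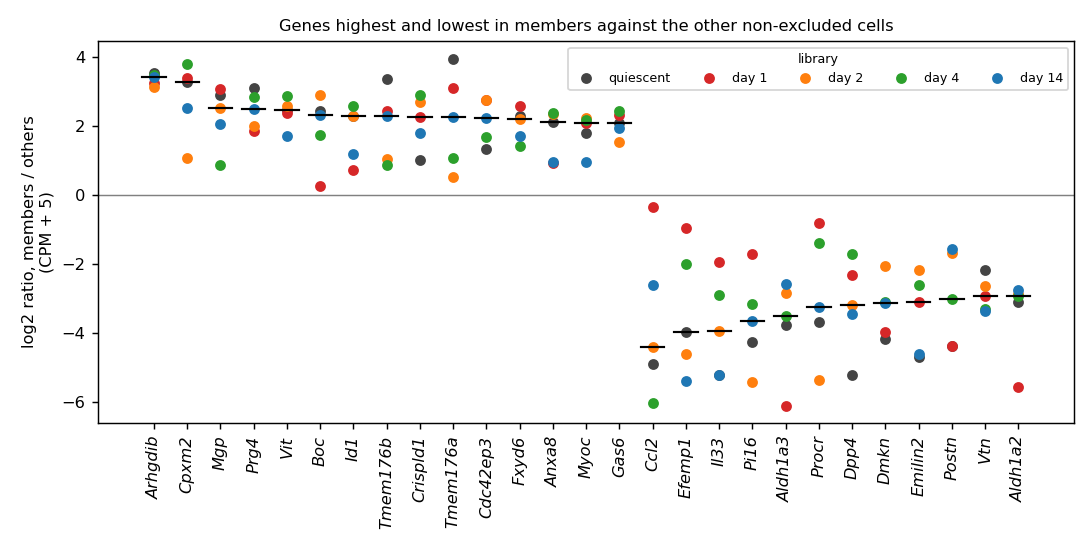
Log2 ratio of members to the other cells of the same library (5 CPM added to both sides) for 15 of the 16 genes of highest median and the 12 of lowest, 1 point a library. Arhgdib heads the higher genes with a median of 3.44, and Ccl2 the lower genes with -4.39; with its 2 libraries at 0 in members set to their floor, Ccl2 has -2.93, behind Efemp1 (-4.21) and Pi16 (-3.66).

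On the low side were the genes of the Pi16 progenitors. Pi16, which encodes a peptidase inhibitor and marks an adventitial fibroblast state, stood at 115, 117, 8.80, 239 and 288 CPM in members and 2269, 395, 581, 2166 and 3636 CPM in the others. Members were 19.8-fold lower in the quiescent library (10.4 to 43.3), 3.37-fold at day 1 (1.71 to 7.80), 9.05-fold at day 4 (6.48 to 13.1) and 12.6-fold at day 14 (9.08 to 18.1). At day 2, on 1 UMI, they were 66.0-fold lower (11.8 to 2606). Of 12 genes measured from a list built around Stmn4 and Pi16, 0 were higher and 10 lower by the looser call. The median was -2.05, or -1.53 with genes at 0 set to their floor. Dpp4, a cell surface peptidase of the same progenitors, had 0, 0, 0, 21.1 and 8.23 CPM against 181, 19.7, 40.2, 79.9 and 138. Efemp1, encoding the elastic fibre protein fibulin-3, had 25.4, 88.0, 8.80, 77.4 and 8.23 CPM against 470, 175, 327, 321 and 551, and was found in 8 members. Of 12 elastic fibre genes 0 were higher and 4 lower (Fbn1, Efemp1, Emilin2 and Loxl1), with a median of -0.60. Of 19 resident progenitor genes 1 was higher (Gsn) and 6 lower (Dpp4, Pi16, Tek, Fbn1, Has1 and Anxa3), with a median of -0.50. The progenitor markers Ly6a and Cd34 differed at day 14 in particular. Ly6a stood at 2112, 3401, 3530, 2688 and 955 CPM against 2182, 1933, 2980, 2555 and 2240, and was 2.35-fold lower in members at day 14 (1.96 to 2.84). Cd34 stood at 1082, 264, 484, 1034 and 634 CPM against 1373, 402, 436, 872 and 1496, and was 2.36-fold lower at day 14 (1.89 to 2.99).

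Chemokines and the alarmin Il33 were low in members. Ccl2, which attracts monocytes, stood at 0, 3357, 70.4, 0 and 16.5 CPM in members and 145, 4285, 1578, 319 and 126 CPM in the others. Members were at least 3.79-fold lower in the quiescent library and at least 15.1-fold lower at day 4, 22.4-fold lower at day 2 (11.4 to 51.9) and 7.64-fold lower at day 14 (2.11 to 63.1). At day 1 they were 1.28-fold lower (1.12 to 1.46). Ccl2 was found in 11 of 83 members. Il33 stood at 0, 44.0, 8.80, 28.1 and 0 CPM against 180, 184, 206, 242 and 179, in 6 members. Ccl7, a relative of Ccl2 named after its values were seen, stood at 25.4, 924, 766, 113 and 16.5 CPM against 140.01, 2530.1, 1728, 533 and 196. Of 13 chemokines and cytokines measured 0 were higher and 4 lower (Ccl2, Ccl7, Ccl11 and Il33), with a median of -1.23, or -1.07 with genes at 0 set to their floor. The retinaldehyde dehydrogenases Aldh1a2 and Aldh1a3, which make retinoic acid, were among the lower genes. Aldh1a3 had 1 UMI over all members, at day 14, and stood at 30.7 to 336 CPM in the others. The 21 xenobiotic and retinoid genes, the family list nearest to Cyp2f2, split as 2 higher (Fmo1 and Adh1) and 3 lower (Aldh1a2, Aldh1a3 and Rarres2), with a median of -0.01. Postn, encoding periostin, a matrix protein of repair, stood at 0, 0, 96.8, 338 and 74.1 CPM against 98.1, 97.3, 320, 2756 and 227, and Fn1, fibronectin, at 63.6, 88.0, 150, 471 and 296 CPM against 1010, 239, 644, 1288 and 1174.

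Several further lists held few called genes. None was called in the interferon response (12 measured, median 0.02), the early response genes (20, median 0.07) or the matrix proteases and their inhibitors (17, median -0.19). Of 12 quiescence genes 3 were higher (Txnip, Gas1 and Gas6) and 0 lower, with a median of 0.54. Of 8 tenogenic genes Cpxm2 was higher and 0 were lower, with a median of 0.41. Of 11 genes of a list built around Hsd11b1 and Cxcl14, 2 were higher (Smoc2 and Vit) and 0 lower. Its median of -0.58 became -0.19 with genes at 0 set to their floor. Of 5 genes of a list built around Dmkn, Sbsn and Krtdap, Penk was higher and Dmkn and Sbsn were lower, with a median of -0.72. Of 2 Notch genes measured, Notch2 and Jag1, 0 were called, with a median of -0.90.

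Cells that met only part of the rule lay between members and the cells that met neither condition for most of these genes. In each library 27 to 61 cells had enough Clu but not the 4-gene sum, and 58 to 173 had the sum but not Clu. Both were set against the cells that met neither. Over the 16 higher genes the median log2 ratio to these cells was 2.51 in members, 1.57 in the Clu-only cells and 1.11 in the cells with the 4-gene sum only. Over the 12 lower genes it was -3.30, -1.56 and -1.12. Most of these lower genes were at 0 in members in at least 1 library and were not set to their floor here. Against the other cells, the floor moved the median of Aldh1a3 from -3.50 to -1.29 and that of Dmkn from -3.11 to -0.85. That of Pi16, with no library at 0, went from -3.64 to -3.66. Clu-only cells had the members' direction for 16 of 16 higher and 12 of 12 lower genes by the median, and in all 5 libraries for 14 and 11 of them. Cells with the 4-gene sum only had it for 15 of 16 and 12 of 12 by the median, Anxa8 being the exception (-0.17), and in all 5 libraries for 13 and 8. The Bglap-class cells that had been set aside gave medians of 2.00 and -1.83, with the members' direction for 16 of the higher and 11 of the lower genes. Postn was the exception, at a log2 ratio of 1.64 in Bglap-class cells and -3.03 in members. For Cpxm2 the Bglap-class cells were higher (4.65) than members (3.48), while for Arhgdib members were higher (3.64 against 1.48). The 28 genes were chosen on the members, so these values have no test.

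**Figure D3:**
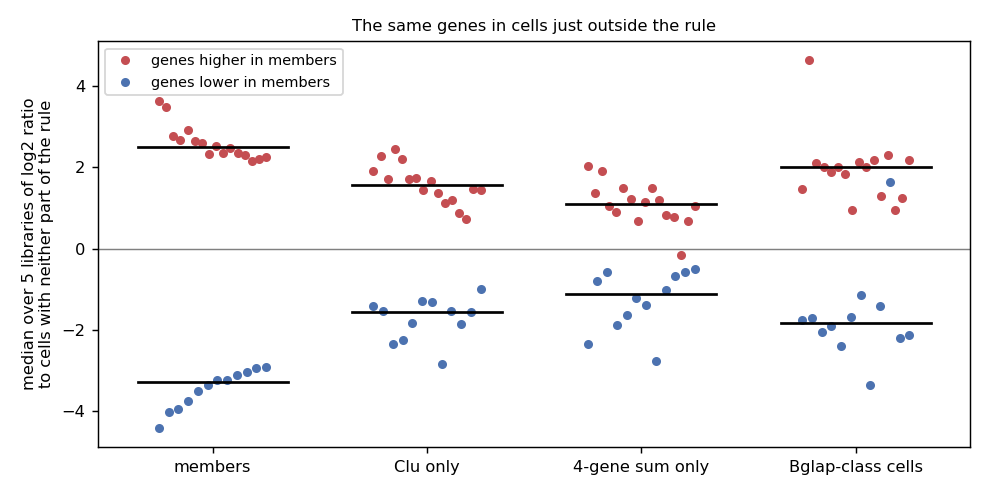
Median over 5 libraries of the log2 ratio to cells that met neither condition of the rule, for the 16 higher and 12 lower genes, in members, Clu-only cells, cells with the 4-gene sum only and Bglap-class cells. Members lie farthest from 0 in the medians (2.51 and -3.30), and the partly matching cells lie between them and 0. Genes at 0 in members were not set to their floor.

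On genes the rule did not use, members lay near each other and near the partly matching cells. Each cell was thinned to 2000 UMIs, the genes of the rule and Crispld1 were left out, and the 15 nearest cells were taken on 30 principal components of 2000 variable genes. Members made up 15.2%, 2.50%, 3.59%, 12.7% and 3.17% of the members' neighbours, against 1.21%, 0.156%, 0.508%, 0.511% and 0.938% of the cells there were to choose from. At least 1 other member was among the neighbours of 19 of 21, 3 of 8, 7 of 13, 13 of 20 and 8 of 21 members. Clu-only cells made up 22.9%, 12.5%, 14.4%, 9% and 9.52% of the neighbours (1.14% to 2.84% of the cells). Cells with the 4-gene sum only made up 30.2% at day 14 and 9.17% to 14.9% in the other libraries (1.78% to 7.92% of the cells). More than any of these, 50.8% to 75.8% of neighbours met neither condition. With the set-aside cells returned, Bglap-class cells were 1.90%, 5.83%, 9.74%, 14.3% and 10.8% of neighbours. They were 2.67%, 2.12%, 3.18%, 3.19% and 7.99% of the cells. At day 4, 43 neighbours were Bglap-class cells and 33 were members. Neighbours of different members overlap and are not independent, and related genes of the same cells chose the members, so these shares are a description.

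**Figure D4:**
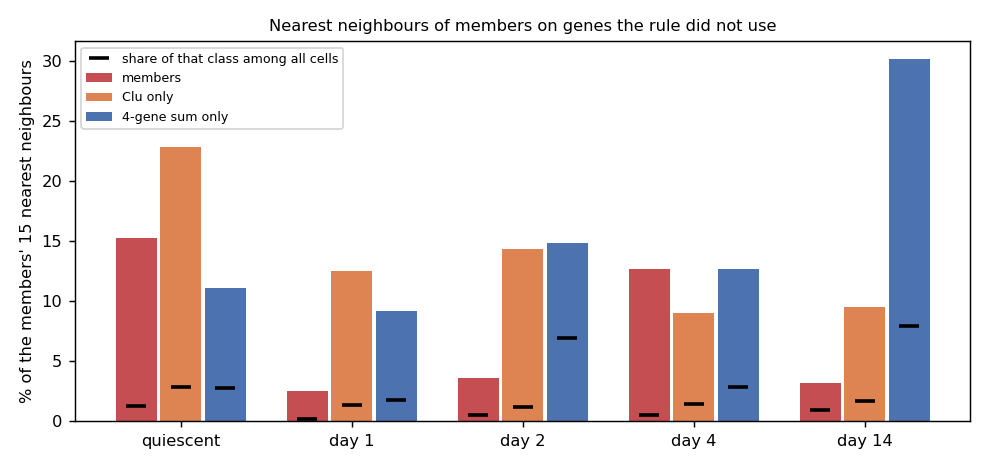
Percentage of the members' 15 nearest cells that fell in each class, per library, with ticks for the class's share of the cells available. Members are 15.2% of neighbours in the quiescent library and 12.7% at day 4, above ticks of 1.21% and 0.511%.

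After injury, Timp1 and Ccl2 were far higher in members at day 1 and Mfap4 and Postn at day 4, as they were in the other cells, on 8 to 21 member cells a library. Against quiescent members, day 1 members held 1686 of 6599 genes at 2-fold or more (25.5%) and 2025 at 2-fold or more below (30.7%). At day 2 it was 1555 of 6533 higher (23.8%) and 1980 lower (30.3%), at day 4 it was 1635 of 6973 higher (23.4%) and 1500 lower (21.5%), and at day 14 it was 1277 of 6745 higher (18.9%) and 1365 lower (20.2%). In the far more numerous other cells, 939 genes were higher and 1470 lower of 6045 at day 1, 693 and 1059 of 6069 at day 2, 382 and 590 of 5943 at day 4, and 55 and 40 of 5743 at day 14. A gene called in members is therefore given with its UMIs and cells.

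At day 1, Timp1, an inhibitor of metalloproteinases, stood at 4149 CPM in members against 38.2 CPM in the quiescent library, a ratio of 109 (36.8 to 530; 283 against 3 UMIs). It was found in 7 of 8 cells, and in the other cells the ratio was 116. Ccl2 stood at 3357 against 0 CPM, at least 88.0-fold higher, in 6 of 8 cells, with 50.7% of the UMIs in 1 cell. In the other cells Ccl2 was 29.7-fold higher. Mmp3, stromelysin, was 62.6-fold higher (21.0 to 307), with 72.4% of its day 1 UMIs in 1 cell. Cxcl5, a neutrophil attractant, stood at 542 CPM in members, in 3 cells, against 2866 CPM in the other cells at day 1. Inmt, indolethylamine N-methyltransferase, was at 0 against 419.9 CPM, at least 9.55-fold lower, and 15.7-fold lower in the other cells. Col15a1 and Pthlh both stood at 0 against 242 CPM, at least 5.50-fold lower. Of 14 quiescence genes 0 were higher and 10 lower, beside 25.5% and 30.7% of all genes. Their median log2 ratio was -1.52 in members, or -1.20 with genes at 0 set to their floor, and -1.61 in the other cells.

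The interferon response genes were higher at day 1 in members than in the quiescent library. Of 14 measured, 10 were higher at day 1 than in quiescent members and 2 lower, with a median log2 ratio of 2.76, or 1.87 with genes at 0 set to their floor. The median was 0.09 in the other cells. Summed over the list, members stood at 840, 3240, 1136, 2617 and 823 CPM and the others at 987, 1173, 1014, 2628 and 991 CPM. The day 1 members were above the other day 1 cells, and 44.3% of their sum came from 1 cell. Isg15, a ubiquitin-like interferon-induced protein, stood at 25.4, 616, 8.80, 162 and 32.9 CPM in members, with 61.9% of its 42 day 1 UMIs in 1 cell of the 5 that held it. At 2000 UMIs per cell, 6 of 8 day 1 members held at least 2 UMIs of the list (75%, 34.9 to 96.8), against 54.3% of the others. At day 4, 11 of 15 genes were higher in members, with a median of 2.45 in members and 1.93 in the other cells. With genes at 0 set to their floor, the members' median was 1.15, below that of the other cells.

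At day 2, S phase and G2/M genes were detected in part of the members. Of 16 S phase genes measured, 12 were higher than in quiescent members and 0 lower, with a median of 1.69 (0.79 with genes at 0 set to their floor) and 1.84 in the other cells. At 2000 UMIs per cell, 5 of 13 day 2 members held at least 2 UMIs of the S phase list (38.5%, 13.9 to 68.4), against 35.6% of the others, and 63.4% of the members' UMIs of the list came from 1 cell. Of 11 G2/M genes measured, all 11 were higher than in quiescent members, which held no UMI of them, as were 18 of 18 at day 4. A gene unseen in quiescent members counted as measured only through the later day, so this direction was fixed in advance. Set against the floor of 3 UMIs, the G2/M medians were 0 at day 2 and 0.35 at day 4, so these calls are not bounds on a fold. At 2000 UMIs per cell, 2 of 13 members at day 2 and 2 of 20 at day 4 held at least 2 UMIs of the list, and 0 of 21, 0 of 8 and 0 of 21 in the quiescent, day 1 and day 14 libraries. Among the other cells it was 25.8% at day 2 and 7% at day 4. One cell held 63.5% of the members' G2/M UMIs at day 2 and 58.9% at day 4. Inmt was 47.7-fold lower at day 2 than in quiescent members (7.98 to 1940), on 1 against 33 UMIs.

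At day 4 and day 14, Mfap4, Eln, Tgfb3 and Postn were among the genes called higher in members on 1 or both days. The interstitial matrix list had 6 of 23 genes higher at day 4 and 4 of 21 at day 14, and the elastic fibre list 4 of 11 and 3 of 11, beside 23.4% and 18.9% of all genes. Mfap4, a microfibril-associated protein of elastic fibres, stood at 0, 0, 17.6, 387 and 881 CPM. It was at least 10.1-fold higher at day 4, in 8 of 20 cells with 56.4% of UMIs in 1, and at least 23.1-fold higher at day 14, in 11 of 21 cells with 32.7% in 1. In the other cells Mfap4 had 163 quiescent CPM, against 577 at day 4 and 415 at day 14. Eln, which encodes elastin, stood at 191, 44.0, 158, 267 and 1605 CPM, 8.41-fold higher at day 14 (4.97 to 15.3) in 15 of 21 cells, with 52.8% of the UMIs in 1 cell. In the other cells it was 1.56-fold higher. Tgfb3, a TGF-beta ligand, stood at 12.7, 14.7, 26.4, 63.3 and 173 CPM, 13.6-fold higher at day 14 (2.18 to 562) in 10 cells. Its quiescent level was 1 UMI. Postn was at least 8.85-fold higher at day 4, in 10 of 20 cells, and 28.1-fold higher in the other cells. Dtx3, a ubiquitin ligase of the Deltex family, had 0, 3, 8, 26 and 16 UMIs in members, in 14 of 20 cells at day 4, at least 4.79-fold higher, while the other cells had 70.8 CPM quiescent and 85.7 CPM at day 4. Ddit4, a stress-induced inhibitor of mTOR signalling, was 7.07-fold lower at day 14 (3.06 to 19), at 57.6 against 407 CPM.

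**Figure D5:**
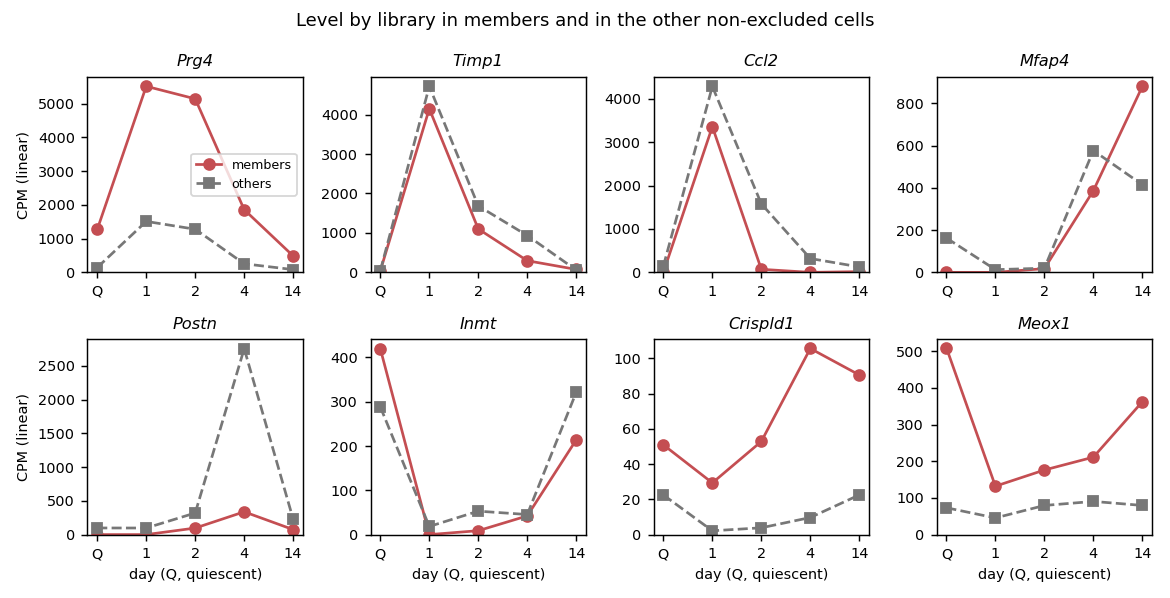
CPM by library in members and in the other cells for Prg4, Timp1, Ccl2, Mfap4, Postn, Inmt, Crispld1 and Meox1, 1 summed value per library. Timp1 and Ccl2 peak at day 1 in both cell groups, and Mfap4 in members runs from 0 in the quiescent library to 881 CPM at day 14.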

How the data were processed

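The files are gene-by-barcode matrices of raw UMI counts, which the authors deposited after Cell Ranger with mm10, per the submitters' processing notes; per the labels, libraries were made with 10X Chromium Single Cell 3' v2 chemistry. No source used here gives a Cell Ranger version. Of 28001 features, 121 share a symbol with another. From the counts, cells were filtered and chosen by the thresholds in the report, and counts were summed per library and cell group. Log2 ratios were formed after adding 5 CPM. The 2-fold call was a ratio of 2 or more with nothing added, the higher group having 20 CPM or more. Ratio intervals are exact conditional binomial ones, and bounds replace a group at 0 by 3 counts per group. Thinning used 2000 UMIs per cell. No doublet caller was run; leaving out the 5% of cells with the most UMIs was tried instead. The members and gene lists were chosen with earlier results of these data known. Named genes were, beside the label genes, Prg4 and progenitor genes, the 16 highest and 12 lowest median ratios against the other cells with 50 CPM in at least 3 libraries and 1 direction in all 5, the 7 highest and lowest each day with 100 CPM, the 4 highest and lowest differences between members and others, and up to 4 genes a list; Ccl7, Cst3 and Stmn2 were added after their values were seen. Alternatives were other scalings, CPM minimums, depths, thresholds, cell weights and neighbour settings. A few genes that these rules name are not reported here. The sums were tested on simulated data. Tools were Python 3.11.15, numpy 2.4.6, scipy 1.17.1, scikit-learn 1.9.0, matplotlib 3.10.9, R 4.3.3, edgeR 4.0.16 (TMM) and DESeq2 1.42.0 (size factors).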

Additional observations from a re-analysis of the deposited data

Results flagged for a closer look

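Between 1822 and 2055 genes a day reached 100 CPM in members of that day or of the quiescent library. Among them, 15 cases of a gene and a day were called 2-fold in opposite directions in members and the other cells. In 5 of these 15, each of a different gene, both counting intervals excluded no change. No allowance was made for the number of genes compared. The difference between the cell groups was not tested, since each day is 1 library. Each value is the log2 change in members less that in the others.

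At day 2, Thbs4, a thrombospondin of tendon matrix, differed by 4.35: it went from 25.4 to 194 CPM in members (2 to 22 UMIs, 50% of the latter in 1 cell) and from 176 to 53.1 CPM in the others. C3, the central complement component, differed by 2.45 at day 2, from 115 to 282 CPM in members (9 to 32 UMIs) and from 473 to 205 CPM in the others. Dhrs3, a retinaldehyde reductase, differed by -3.57 at day 2, from 102 to 17.6 CPM in members (8 to 2 UMIs) and from 18.4 to 53.9 CPM in the others.

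At day 4, Ddit4l, a relative of the mTOR inhibitor Ddit4, differed by -4.39, from 139.96 to 35.2 CPM in members (11 to 5 UMIs) and from 9.07 to 76.5 CPM in the others. Nrep, a regenerating neuron-related protein, differed by -2.38 at day 4, from 356 to 162 CPM in members (28 to 23 UMIs) and from 128 to 313 CPM in the others.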

How the results depend on the processing

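The values of the 28 genes named against the other cells kept their direction in 196 of 196 alternatives, 195 of them on the same side of 2-fold. Crispld1 in the sums of thinned cells fell to a log2 ratio of 0.89. These genes were chosen for 1 direction in all 5 libraries, and the alternatives drew on the same cells. Keeping direction is therefore no separate support. Setting genes at 0 to their floor was not among these alternatives, and it took Dmkn from -3.11 to -0.85, inside 2-fold. Of 196 alternatives for shares, counts and medians 141 stayed close to the reported value. Shares of members were 0.360%, 0%, 0.0411%, 0% and 0.228% thinned before the rule, and 0.212%, 0.0446%, 0.254%, 0.161% and 0.212% with stricter thresholds. Genes higher in all libraries (25) became 14 with TMM factors, 12 at 50 CPM, 39 with no minimum, 39 with cells weighted equally, 13 with stricter thresholds and 35 to 45 when 1 library was left out, where fewer libraries had to qualify. Genes lower in all libraries (18) became 41, 9, 2750, 29 and 39 under those settings, 39 in thinned sums, and 20 to 35 with 1 library left out. Without day 1, day 2 or day 4 the counts were 45, 40 and 38 higher and 35, 29 and 33 lower. Over the days, genes higher at 50 CPM were 887, 806, 660.0 and 474; with no minimum 3032, 3309 and 2984 at days 2, 4 and 14; thinned 2765 and 2864, and with stricter thresholds 3317 and 3025, at days 4 and 14. Genes lower were 1061, 896, 731 and 601 at 50 CPM, 3426, 3034, 2315 and 2157 with no minimum, 3669, 3193, 2549 and 2703 thinned, and 2209 at day 14 with stricter thresholds. Counts over days thus rest on the CPM minimum and on a few cells. Members among neighbours were 10.4% (quiescent) and 8.30% (day 4) at 50 neighbours, and 7.30% at day 14 on full counts. The median of BMP and TGF-beta antagonists was -0.21 with TMM, an alternative chosen after seeing the data. No paired analysis was possible because each condition is 1 library.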

Other observations

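Penk, the precursor of the enkephalin peptides, stood at 725, 103, 158, 127 and 411 CPM in members and 131, 57.9, 36.0, 51.7 and 156 CPM in the other cells. It was found in 58 of 83 members, with 22.8% of the quiescent UMIs in 1 cell. Cst3, which encodes the cysteine protease inhibitor cystatin C, was found in all 83 members, at 8627, 2404, 6946, 6902 and 14163 CPM against 2206, 781, 1622, 2424 and 3710 CPM in the others. It was also found in 95.8% to 99.6% of the other cells of a library. Its medians over libraries were 6816 CPM in Bglap-class and 4838 CPM in tenocyte-class cells. Members stood above Bglap-class cells in 3 of 5 libraries. Stmn2, a stathmin known from growing neurites, stood at 127, 191, 26.4, 21.1 and 32.9 CPM in members against 1.67 to 8.24 CPM in the others, on 33 UMIs in 12 members.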
